A study of Homo sapiens with 14 samples.

Results

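The tumour suppressor p53 switches on a set of target genes when cells are under stress, and 35 of these were followed in 2 glioblastoma cell lines after knockdown of the long non-coding RNA LINC00152. The genes form a list of well-known p53 targets, and array probes were assigned to them through the accession of the transcript that each probe reads. Of the 35 genes, 34 had at least 1 probe, with 49 probes among the 50599 different probes of the array, and CYFIP2 matched none. A172 and U87-MG are established human glioblastoma lines that are commonly used as models with wild-type p53. The p53 status of the cells was not measured by the arrays. Cells received by electroporation either a negative control siRNA without a target RNA or siLINC00152, which is directed against exon 1 of LINC00152, at 20 pmol/ml, and total RNA was taken after 40 h by the labels. The publication gives a later time for the arrays, and the difference could not be settled. There were 3 independent experiments with each siRNA in A172 and 4 in U87-MG, which gave 14 one-colour Agilent arrays. For A172, 3 slides each carried 1 pair of control and knockdown, while a single further slide carried all 8 arrays of U87-MG, so levels of the lines cannot be told apart from the slide. The share of spots well above background ran from 57.3% to 69.0% for A172 and from 35.7% to 48.3% for U87-MG, whose replicate 3 arrays were the dimmest, at 35.7% for the control and 40.4% for the knockdown.

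As background, p53 is a transcription factor that is kept low in unstressed cells by the ubiquitin ligase MDM2 and its partner MDM4. DNA damage and other stresses free p53 from MDM2, and p53 then binds DNA at pairs of a short half-site and raises genes for cell cycle arrest, DNA repair, apoptosis and its own feedback. CDKN1A encodes p21, which blocks cyclin-dependent kinases and, through the DREAM complex, represses genes of cell division such as FOXM1. In glioblastoma the pathway is often blocked through MDM2, MDM4 or loss of CDKN2A. The targets were therefore set beside regulators of p53 and genes repressed through p21.

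The study lists 2 siRNAs against exon 1 of LINC00152, and the labels of the arrays do not say which was used. The first of them is shown in DNA letters.
siLINC00152 #1: tgcctgtcttcagatcttcacagca

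Promoter windows show where the p53 half-site occurs near the start of these genes. RefSeq sequences of GRCh38.p14, 300 bases long and spanning a gene's start, were found for 28 of the 35 genes and searched on both strands, which give the same matches because the motif reads the same on either, with overlapping matches counted. At least 1 exact p53 half-site was present in 7 of the 28 genes (25%), and in 8.06% of all 27305 genes with such a window. A pair of half-sites with 0 to 13 bases between them occurred in 1 of the 28, DDB2, and in 10 of all genes (0.0366%). Stretches of 30 bases around the matches are given on the strand of the gene, with the half-sites in capitals. A match is a description of the letters and was not tested for binding.
DDB2, chr11:47214975-47215004 (+): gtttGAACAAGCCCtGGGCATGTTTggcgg
PLK2, chr5:58460199-58460228 (-): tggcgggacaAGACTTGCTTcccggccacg
FAS, chr10:88991299-88991328 (+): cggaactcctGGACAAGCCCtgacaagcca
RPS27L, chr15:63157517-63157546 (-): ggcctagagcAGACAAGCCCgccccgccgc
SESN1, AEN and FDXR held a half-site as well. The DDB2 site begins at base 6 of the transcript, and the PLK2 half-site begins 132 bases before the start. The windows of CDKN1A, CCNG1, PMAIP1 and MDM2 held no exact match in their 300 bases, and no window was available for TP53INP1 or TNFRSF10B.

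Levels are log2 values of the background-corrected signal relative to the 75th percentile of the array, so that 0 is the 75th percentile and 1 unit is a doubling. The target of the siRNA was examined first. LINC00152, which RefSeq lists as CYTOR, had levels of 2.63, 2.44 and 2.48 in the control arrays and 0.23, -0.42 and -0.10 in the knockdown arrays of A172. In U87-MG the levels were 1.94, 1.82, 1.71 and 1.82 in the control arrays and -1.22, -0.88, -0.74 and -0.79 in the knockdown arrays. Control and knockdown arrays did not overlap in either line, and LINC00152 was lower in all 3 and all 4 pairs. LINC00152 fell, with fitted log2 fold changes of -2.61 for A172 (standard error 0.24, adjusted p = 0.000731) and -2.73 in U87-MG (error 0.21, adjusted p = 4.96e-05), which left 16.3% and 15.1% of the control signal. The near-identical locus MIR4435-2HG was read by 3 probes. Its probe A_21_P0012079 fell with log2 fold changes of -2.44 and -2.97 (adjusted p = 0.00339 and 7.13e-05), whereas A_33_P3269678 had -0.31 and -0.31 and was not called. A_21_P0012078, at -1.53 and -2.08, was called in both lines only when the pairs entered the model.

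The p53 targets did not move together. A few members changed, in both directions, while MDM2, BBC3, BAX, GDF15 and SESN2 had fitted log2 changes between -0.2 and 0.2 by their brightest probes. Most changes were seen only when each knockdown array was compared with the control of its own replicate number. A gene was tested in a line if 1 of its probes was well above background on 3 or more arrays of a group, and was called at an FDR below 0.2 with an absolute log2 fold change above 0.5 in limma. Of the 34 genes, 29 were tested in A172 and 26 in U87-MG. Without the pairing, 0 of 29 members were called in A172, against 0.265% of all 14690 genes tested, and 1 of 26, TP53INP1, in U87-MG, against 0.0659% of 12136. At an unadjusted p below 0.05 from the same limma fit there were 3 members in A172 and 2 in U87-MG, beside 3.36% and 3.01% of all genes. The TP53INP1 call came from a probe that was well above background on 0 of 4 U87-MG controls and was tested only through the group in which it was high, so it had to differ to be counted. Arrays of the same replicate number deviated together, and when that number entered the model as a block, 2 members were called as higher and 3 as lower in A172, where 1.72% and 3.27% of all tested genes were called. In U87-MG 3 members were called as higher and 2 as lower, against 3.07% and 2.37%. The median log2 fold change of the members, by their brightest tested probe, was 0.027 in A172 and 0.011 in U87-MG, beside 0.021 and -0.017 over all tested probes. At least 21 members in each line had an absolute fitted change below 0.5, namely 23 of 29 in A172 and 21 of 26 in U87-MG. The members were chosen with earlier results known, so these shares are descriptions.

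**Figure D1:**
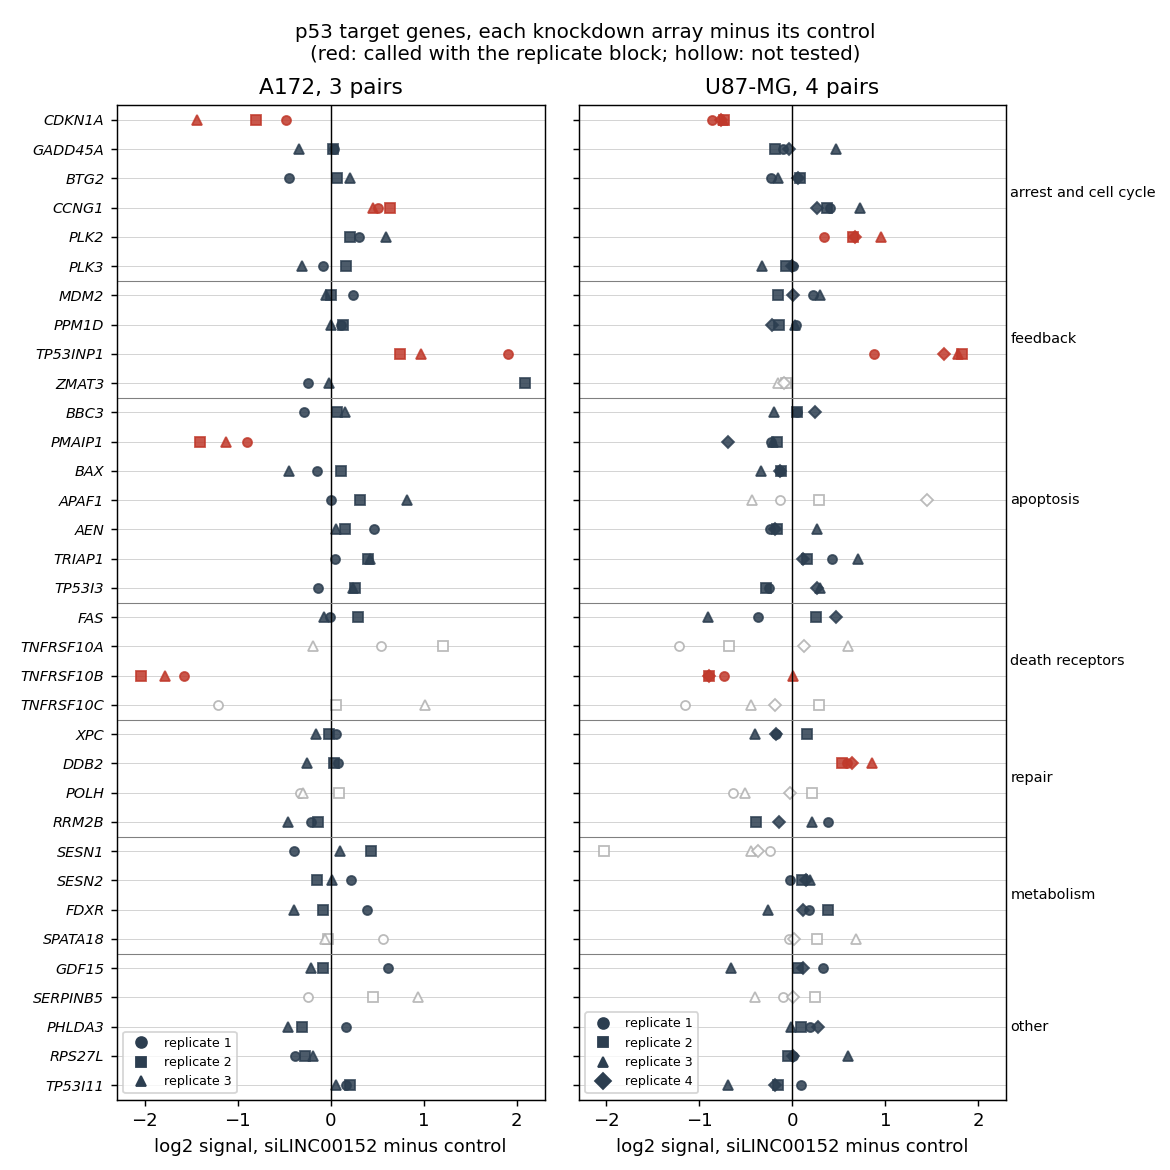
Difference in log2 signal between the knockdown and the control array of each replicate pair for the brightest probe of 34 p53 target genes, grouped by role, in A172 (3 pairs) and U87-MG (4 pairs). Points of CDKN1A lie below 0 and points of TP53INP1 above 0 in all 7 pairs, and most other genes scatter around 0.

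Among the genes of arrest and cell cycle control, CDKN1A was lower after the knockdown in all 7 pairs. In A172 its levels were 2.43, 1.77 and 2.78 in the control arrays and 1.95, 0.96 and 1.33 in the knockdown arrays, and the groups overlapped. U87-MG had 3.57, 3.22, 4.82 and 3.05 in the control arrays and 2.70, 2.49, 4.07 and 2.29 in the knockdown arrays. The control groups themselves were spread, with replicate 3 the highest of the 4 U87-MG controls, and the groups overlapped, but the differences within pairs were -0.87, -0.73, -0.74 and -0.77 in U87-MG and -0.48, -0.81 and -1.44 in A172. CDKN1A had fitted log2 fold changes of -0.91 for A172 and -0.78 for U87-MG, a 1.88-fold and a 1.71-fold lower signal. Without the block the standard errors were 0.52 and 0.45 and neither was called (adjusted p = 1.00 and 1.00). With the block they were 0.18 and 0.15, and both were called (adjusted p = 0.0731 and 0.0825). The A172 call was lost without pair 2 (adjusted p = 0.309) or pair 3 (0.338), and the U87-MG call without pair 1 (0.274), pair 2 (0.252) or pair 4 (0.254).

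CCNG1 encodes cyclin G1, which recruits a phosphatase to MDM2, and it rose in A172. Its brightest of 2 probes had levels of 1.95, 1.67 and 1.81 in the control arrays and 2.46, 2.31 and 2.26 in the knockdown arrays, and the groups did not overlap. With the block the log2 fold change was 0.54 (standard error 0.13, adjusted p = 0.135), and the second probe had 0.64 (standard error 0.13, adjusted p = 0.0765). Neither was called without the block, at adjusted p = 1.00 for both. In U87-MG the brightest probe gave 2.23, 2.52, 0.34 and 3.23 in the control arrays and 2.63, 2.90, 1.06 and 3.50 in the knockdown arrays. Every U87-MG pair was higher, by 0.40, 0.38, 0.72 and 0.27, but the fitted 0.44 lay under the fold threshold (adjusted p = 0.129 with the block), and the second probe had 0.20. Both A172 calls were lost when any A172 pair was left out, with adjusted p from 0.295 to 0.389 for the second probe and from 0.407 to 0.552 for the brightest, which was also lost without U87-MG pair 1 (0.223) or pair 2 (0.216).

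PLK2, a polo-like kinase induced by p53, rose in U87-MG. Its U87-MG levels were 0.34, 0.11, -0.17 and 0.42 in the control arrays and 0.67, 0.76, 0.78 and 1.09 in the knockdown arrays, so that all knockdown arrays lay above all controls. The log2 fold change was 0.65 (adjusted p = 1.00 without the block, and standard error 0.13 with adjusted p = 0.0818 with it). The call needed pair 2 (adjusted p = 0.260 without it) and pair 4 (0.260), and the change was 0.39 after normexp background correction, below the fold threshold. In A172 the levels of PLK2 were 3.61, 2.14 and 2.35 in the control arrays and 3.92, 2.35 and 2.94 in the knockdown arrays. All 3 pairs were higher there too, with a fitted 0.37 that was not called (adjusted p = 0.422 with the block). The related kinase PLK3 had -0.076 and -0.097. GADD45A, a stress sensor that inhibits the G2/M kinase, had -0.093 and 0.034, and the antiproliferative gene BTG2 had -0.06 and -0.06 in A172 and U87-MG. None of these 3 genes was called in either fit.

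**Figure D2:**
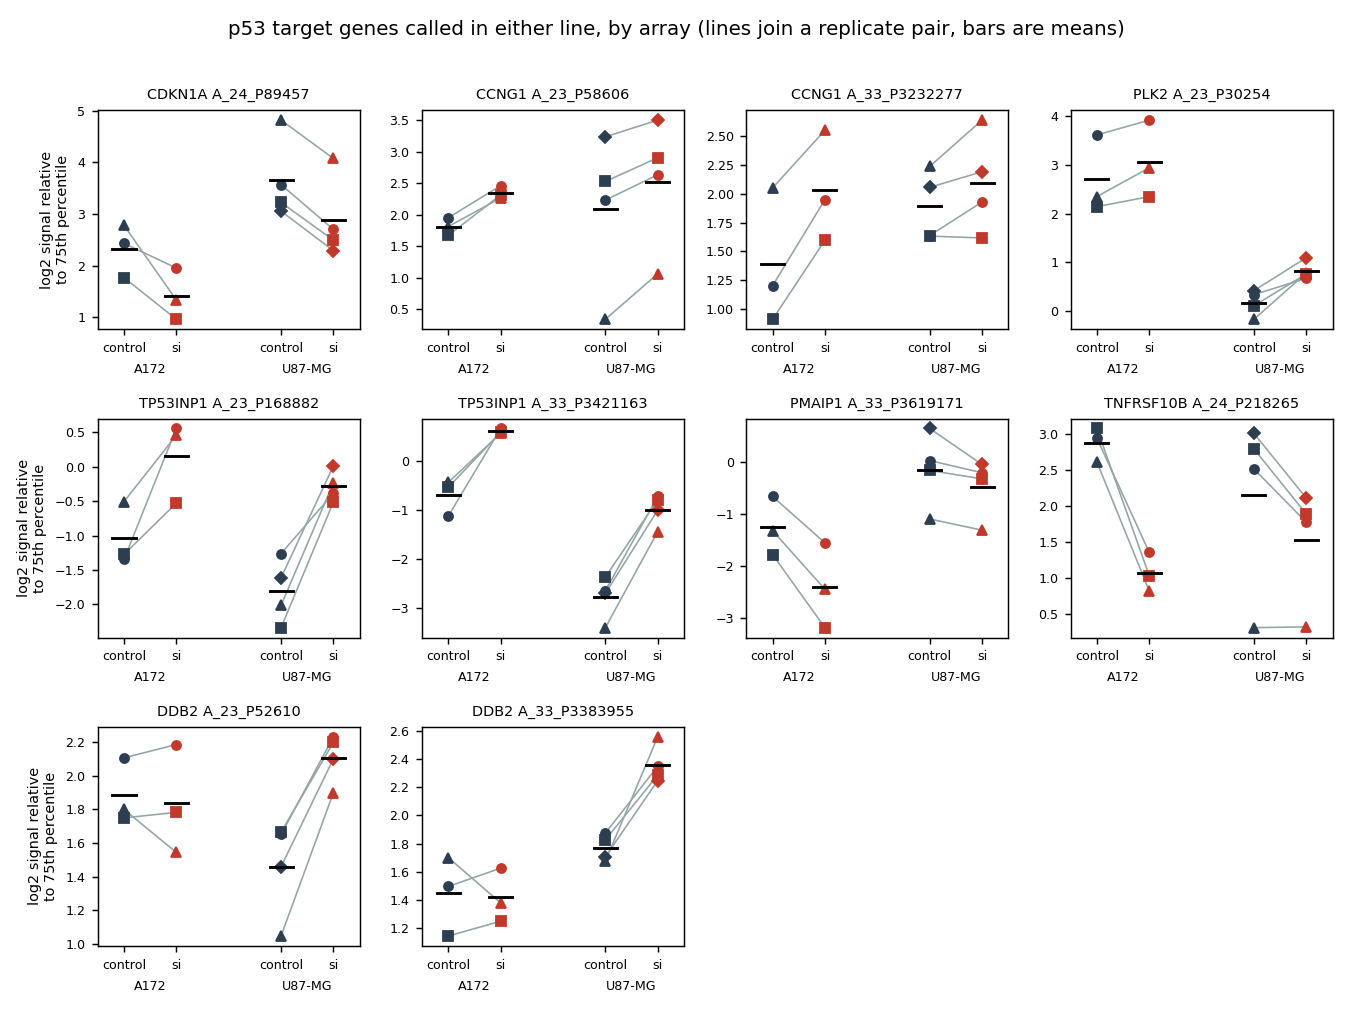
Level of each p53 target gene probe called in either line, in log2 units around the array's 75th percentile, for every array of A172 (3 pairs) and U87-MG (4 pairs). Lines join the control and the knockdown array (si) of a replicate number and bars are group means, and TP53INP1 A_33_P3421163 shows knockdown arrays above controls in both lines while TNFRSF10B shows A172 knockdown arrays below every A172 control.

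Among the feedback genes, TP53INP1 rose in both lines. TP53INP1 encodes a nuclear protein that promotes the phosphorylation of p53 and takes part in autophagy. Its probe A_33_P3421163 had levels of -1.12, -0.54 and -0.44 in the control arrays and 0.66, 0.58 and 0.56 in the knockdown arrays of A172. In U87-MG the same probe had -2.64, -2.36, -3.39 and -2.69 in the control arrays and -0.72, -0.79, -1.44 and -1.0 in the knockdown arrays. The groups did not overlap in either line. For A172 the fitted log2 fold change was 1.30 (standard error 0.30, adjusted p = 0.329 without the block and 0.0170 with it). In U87-MG the controls were well above background on 0 of 4 arrays and the knockdown arrays on 4 of 4, so the probe was tested only through the group in which it was high, and the signal was at least 1.92-fold higher after the knockdown (adjusted p = 0.0270 without the block and 0.00720 with it). This limit sets the mean of the knockdown arrays against the lowest signal that counted as well above background on each control array.

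The brightest TP53INP1 probe, A_23_P168882, moved alike. Its A172 levels were -1.35, -1.27 and -0.51 in the control arrays and 0.56, -0.53 and 0.46 in the knockdown arrays, and its U87-MG levels were -1.26, -2.34, -2.02 and -1.61 in the control arrays and -0.38, -0.51, -0.23 and 0.013 in the knockdown arrays. The U87-MG groups did not overlap, although only 2 of the 4 controls were well above background, and the A172 groups overlapped. In U87-MG this probe, too, was tested only through the group in which it was high, so its fold there rests partly on dim values. Fitted log2 fold changes of 1.21 and 1.53 were called with the block (adjusted p = 0.0993 and 0.0404) and not without it (0.807 and 0.316). For this probe the A172 call was lost when any A172 pair was left out (adjusted p from 0.229 to 0.396) and the U87-MG call without pair 2 (0.209). After normexp background correction A_33_P3421163 gave 0.39 and A_23_P168882 gave 0.45 in U87-MG, under the fold threshold, and they were not called there. With the block their adjusted p in limma was then 0.0562 and 0.101, so in that fit only the fold threshold was missed. The call of A_33_P3421163 without the block was also lost without U87-MG replicate 1 (adjusted p = 0.719), 2 (0.249) or 4 (0.328).

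MDM2, the ligase that marks p53 for degradation and is itself a p53 target, was read by 4 probes. The brightest had levels of 3.97, 4.70 and 4.34 in the control arrays and 4.20, 4.70 and 4.29 in the knockdown arrays of A172. In U87-MG it had 3.23, 3.48, 2.24 and 2.93 in the control arrays and 3.45, 3.33, 2.54 and 2.94 in the knockdown arrays. The groups overlapped, and the log2 fold changes were 0.061 (standard error 0.13 with the block) and 0.094 (0.12). A dim probe, A_23_P502750, was well above background on 2 of 3 A172 controls and 3 of 3 knockdown arrays and was tested through the latter, with a fitted 0.73 that was not called (adjusted p = 0.263 with the block). A_19_P00810040 had 0.42 in A172, and A_24_P925664 was not tested in either line. With the block, MDM2 was called as higher in A172 by at least 1 probe under quantile normalization, with the authors' log2 values, with each line fitted alone and without U87-MG pair 3. PPM1D, a phosphatase that turns the p53 response off, had 0.084 in A172 and -0.074 in U87-MG. ZMAT3, an RNA-binding protein, was tested only in A172, where the fitted 0.61 came from 1 pair whose control was not well above background.

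In the apoptosis group, PMAIP1 fell in A172 and the other measured genes were not called. PMAIP1 encodes NOXA, a BH3-only protein that neutralizes MCL1. In A172 its levels were -0.66, -1.79 and -1.32 in the control arrays and -1.56, -3.19 and -2.46 in the knockdown arrays. The groups overlapped, and the differences within pairs were -0.90, -1.41 and -1.13. The probe was well above background on 3 of 3 controls and 2 of 3 knockdown arrays, so it was tested through the group in which it was high and its fold rests partly on a dim value. The log2 fold change was -1.15, which the block brought from a standard error of 0.50 (adjusted p = 1.00) to 0.15 (adjusted p = 0.0185). This call was kept when any single pair of either line was left out. The U87-MG arrays had 0.03, -0.16, -1.10 and 0.65 in the control arrays and -0.21, -0.32, -1.31 and -0.046 in the knockdown arrays. All 4 pairs were lower there, with a fitted -0.33 that was not called (adjusted p = 0.275 with the block). After normexp background correction the A172 value was -0.51 and was still called.

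BBC3, which encodes PUMA and is the other BH3-only target, did not follow PMAIP1. Its levels were 0.42, 1.45 and 1.11 in the control arrays and 0.13, 1.52 and 1.27 in the knockdown arrays of A172. In U87-MG they were 1.02, 1.06, 1.53 and 0.27 in the control arrays and 1.07, 1.11, 1.34 and 0.51 in the knockdown arrays. Both groups overlapped in each line, and the log2 fold changes were -0.023 and 0.036 (standard errors 0.14 and 0.12 with the block). BAX, the pore-forming effector of mitochondrial apoptosis, had levels of 0.43, 1.30 and 1.01 in the control arrays and 0.28, 1.41 and 0.56 in the knockdown arrays of A172 by the brightest of its 2 probes. For U87-MG they were 1.77, 1.86, 1.70 and 1.59 in the control arrays and 1.63, 1.74, 1.36 and 1.45 in the knockdown arrays. BAX was lower in all 4 U87-MG pairs, with a fitted -0.18 that was not called, but its second probe had 0.046. In A172 the 2 probes had -0.16 and -0.13.

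The remaining apoptosis genes were not called in either fit. APAF1, the core of the apoptosome, had 0.38 in A172 and no U87-MG array had it well above background. The nuclease gene AEN had 0.22 and -0.083 by its brightest probe. TRIAP1, a small inhibitor of apoptosis, was higher in all 7 pairs, with 0.29 and 0.35 (adjusted p = 0.624 and 0.251 with the block). The oxidoreductase gene TP53I3 had 0.12 and 0.0072 by its brightest probe, and its second probe was higher in all 7 pairs, with 0.42 and 0.40.

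Of the death receptors, TNFRSF10B fell. It encodes DR5, a receptor of the ligand TRAIL, and is a target of p53 and of the stress factor CHOP. Its levels in A172 were 2.94, 3.07 and 2.61 in the control arrays and 1.36, 1.03 and 0.82 in the knockdown arrays. Every knockdown array of A172 lay below every control, with differences of -1.58, -2.04 and -1.78 within pairs. The log2 fold change of -1.80, a 3.48-fold lower signal, was not called without the block (standard error 0.60, adjusted p = 1.00) and was called with it (standard error 0.20, adjusted p = 0.00977). The call was kept when any single pair of either line was left out. U87-MG had 2.51, 2.79, 0.32 and 3.00 in the control arrays and 1.77, 1.89, 0.33 and 2.11 in the knockdown arrays, and both replicate 3 arrays were far below the rest. The pairs differed by -0.74, -0.90, 0.011 and -0.89, so that 3 pairs were lower and pair 3 did not differ. The fitted -0.63 was called with the block (adjusted p = 0.151) and not without it (1.00), and without pair 3 it was -0.84. Leaving out any other single pair of either line ended the call, with adjusted p from 0.202 to 0.347.

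FAS, the receptor of FAS ligand, had 0.074 in A172 and -0.14 in U87-MG by the brightest of 3 probes and was not called. TNFRSF10A, which encodes the other signalling TRAIL receptor DR4, and the decoy receptor TNFRSF10C were well above background on 0 of 14 arrays, so no change can be given for them.

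Among the repair genes, DDB2 rose in U87-MG. DDB2 recognizes ultraviolet damage together with DDB1, and its start carries the pair of half-sites shown above. In U87-MG its brightest probe had levels of 1.65, 1.67, 1.05 and 1.46 in the control arrays and 2.23, 2.20, 1.90 and 2.10 in the knockdown arrays, and each knockdown array lay above each control. The differences within pairs were 0.58, 0.53, 0.85 and 0.64, and the log2 fold change of 0.65 was called with the block (standard error 0.11, adjusted p = 0.0575) and not without it (standard error 0.22, adjusted p = 1.00). The second probe had 0.59 (adjusted p = 0.0953 with the block). In A172 the levels were 2.11, 1.75 and 1.80 in the control arrays and 2.19, 1.78 and 1.54 in the knockdown arrays, which overlapped, and the 2 probes had -0.048 and -0.029. The U87-MG call was lost without pair 1 (adjusted p = 0.204), pair 2 (0.209) or pair 4 (0.210), and for the second probe also without pair 3, where the change was 0.49. After normexp background correction the probes had 0.47 and 0.47, under the fold threshold. XPC, the partner sensor of bulky DNA lesions, had -0.038 and -0.15. RRM2B, a subunit of ribonucleotide reductase, had -0.27 and 0.015, and neither gene was called. The translesion polymerase gene POLH was well above background on too few arrays to be tested in either line.

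No metabolic or other target was called. SESN2, which restrains the mTORC1 kinase under stress, had levels of -0.79, 0.25 and -0.18 in the control arrays and -0.58, 0.11 and -0.17 in the knockdown arrays of A172. Its U87-MG levels were 0.96, 0.92, 1.20 and 0.56 in the control arrays and 0.94, 1.02, 1.40 and 0.71 in the knockdown arrays. The log2 fold changes were 0.027 and 0.10 (standard errors 0.12 and 0.10 with the block). GDF15, a secreted stress cytokine, had 1.24, 2.18 and 1.89 in the control arrays and 1.85, 2.09 and 1.68 in the knockdown arrays of A172. The U87-MG values of GDF15 were 0.11, 0.23, 0.92 and -0.13 in the control arrays and 0.44, 0.29, 0.27 and -0.015 in the knockdown arrays. Its pairs went in both directions in each line, and the log2 fold changes were 0.11 and -0.04. SESN1 was tested only in A172, with 0.043. FDXR, which passes electrons to mitochondrial P450 enzymes, had -0.028 and 0.10. SPATA18, a mitochondrial quality control gene, was well above background on 0 of 14 arrays, and the serpin gene SERPINB5 on too few arrays to be tested. PHLDA3, an inhibitor of AKT, had -0.20 and 0.14. RPS27L, a ribosomal protein gene, had -0.28 and 0.14. TP53I11 had 0.14 and -0.24 by its brightest probe.

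Genes that regulate p53 were examined beside its targets. The acetyltransferase gene KAT5 rose in U87-MG with the block, with 0.58 (adjusted p = 0.192), which rested largely on pair 3 among differences of 0.56, 0.12, 1.24 and 0.38. MDM4 was higher in all 7 pairs by the brightest of its 4 probes, with 0.38 and 0.30, but was not called (adjusted p = 0.487 and 0.337 with the block). Its probe A_23_P103503 was higher in all 7 pairs too, with 0.17 and 0.25. A_19_P00320719 had -0.0049 and 0.20 and was higher in only 1 of 3 A172 and 2 of 4 U87-MG pairs. A_19_P00320721 had 0.24 in A172 and was not tested in U87-MG, where 1 of 4 pairs was higher. The brightest CDKN2A probe had -0.011 and -0.017, and whether it reads CDKN2A alone was not tested.

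**Figure D3:**
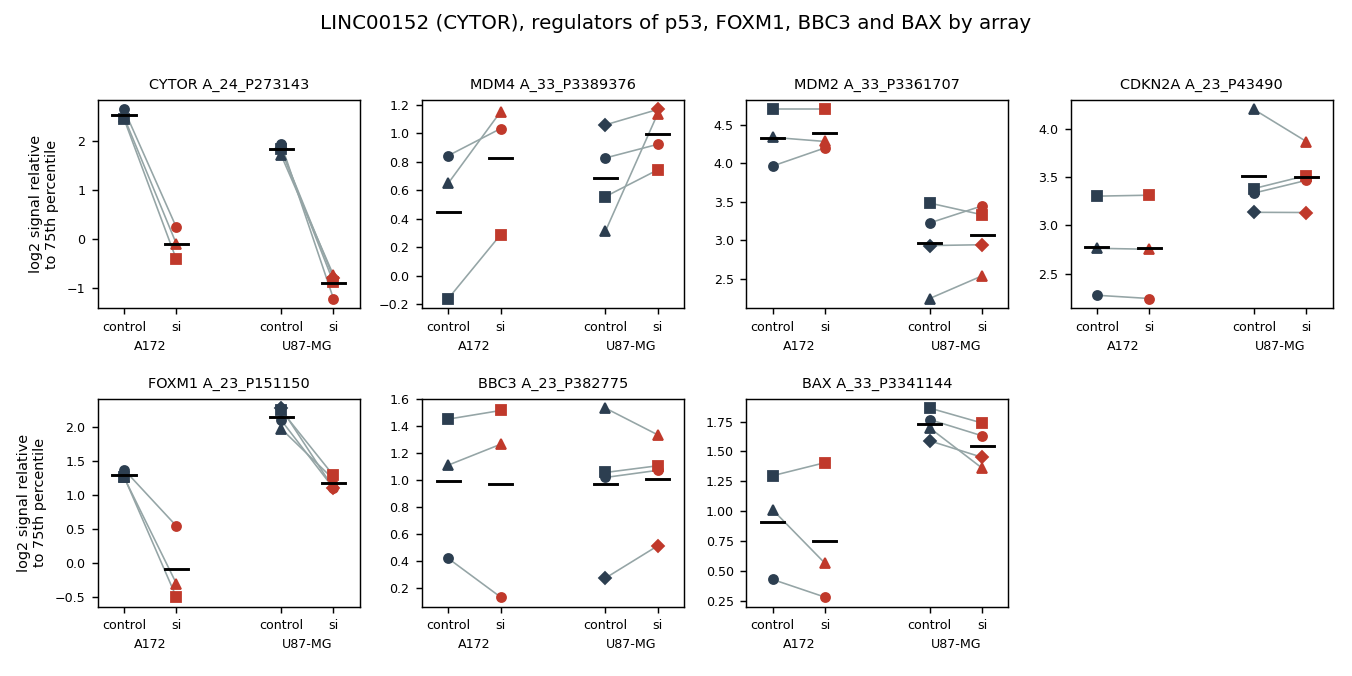
Log2 signal relative to the 75th percentile in every array for LINC00152 (CYTOR), MDM4, MDM2, CDKN2A, FOXM1, BBC3 and BAX by their brightest probes, with lines joining the control and the knockdown array (si) of a replicate number and bars at group means. LINC00152 and FOXM1 lie lower in all 7 knockdown arrays than in their paired controls, and MDM4 lies higher in all 7.

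Calls among further p53 targets outside the list were all lower in A172 and all higher in U87-MG. Of 42 such genes, 30 were tested in A172 and 27 in U87-MG, and with the block 3 were called as lower in A172 and 3 as higher in U87-MG. Those of A172 were the death domain receptor gene EDA2R (-0.88, adjusted p = 0.136), GASK1B (-1.07, adjusted p = 0.0205) and PML, the organizer of nuclear bodies. The PML call came from a probe that was well above background on 3 of 3 controls and 1 of 3 knockdown arrays (adjusted p = 0.108), so its fold is not given, and the brightest PML probe had -0.36 (adjusted p = 0.288). Those of U87-MG were the autophagy gene DRAM1 (0.69, adjusted p = 0.118), the AMPK subunit gene PRKAB1 (0.99, adjusted p = 0.198) and the cytokine gene CSF1 (0.54, adjusted p = 0.0902). CSF1 was read by 3 probes, and 1 of the others had 0.56 (adjusted p = 0.165). The third probe, at -0.19, was lower in all 4 pairs and was not called. The PRKAB1 value rested largely on pair 3, whose control was not well above background, while the other 3 pairs were higher by 0.52, 0.56 and 0.42. The median log2 fold change of the tested genes was -0.13 in A172 and -0.032 in U87-MG. Fitted changes lay below 0 for 20 of the 30 genes in A172 and for 14 of the 27 in U87-MG. The calls with the block made up 10% and 11.1% of the tested genes. Over all genes, 3.27% were called as lower in A172 and 3.07% as higher in U87-MG.

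Genes that p21 represses through the DREAM complex were set beside the lower CDKN1A. All 20 were tested in both lines, and FOXM1, the transcription factor of mitotic genes, was lower in all 7 pairs. FOXM1 had -1.39 in A172 (adjusted p = 0.0929 without the block and 0.0185 with it) and -0.97 in U87-MG (0.534 and 0.0575). E2F1 was called as higher in A172 with the block (0.52, adjusted p = 0.161), and the other 18 genes were not called. The median log2 fold changes of the 20 genes were 0.07 in A172 and 0.046 in U87-MG. Stress genes of the ATF4 pathway, which shares targets such as TNFRSF10B and SESN2 with p53, gave no call among 11 tested genes in either line with limma in either fit, and their medians were -0.12 and 0.11. Of 10 interferon-induced genes, OASL fell in A172, where the knockdown arrays were well above background on 0 of 3 arrays and the signal was at least 2.61-fold lower (adjusted p = 0.00239 without the block), and IFIT3 rose in U87-MG with the block (0.79, adjusted p = 0.0713).

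Markers of the cell type were checked in the same arrays. The mesenchymal and glioma-associated genes VIM, CD44, NES, FN1, S100A6 and ANXA2 were well above background on all 14 arrays, while the astrocyte marker GFAP was so on 1 array and the epithelial marker CDH1 on none. Other epithelial genes were detected. Of the 6 on the list, 2 had a brightest probe well above background on all A172 arrays and 1 on all U87-MG arrays. CD44 fell in A172 (-1.13, adjusted p = 0.00807 with the block). All 8 mesenchymal and glioma-associated genes tested in A172 had fitted changes below 0 (median -0.26). All 6 tested in U87-MG lay above 0 (median 0.15), and medians over all tested probes were 0.021 and -0.017. CD44 was the only gene of this list that was called. The keratin gene KRT14 rose in A172 by 2 of its 3 probes (3.35 and 3.36, adjusted p = 0.0200 and 0.0100 without the block) but not by the brightest (0.71). Whether fewer cells carried a transcript or each cell held less of it cannot be told apart in RNA from whole cultures. No marker of immune cells, endothelial cells or neurons was called in either line with limma in either fit. Many of them were detected all the same. On all A172 arrays the brightest probe was well above background for 5 of 5 immune, 3 of 4 endothelial and 2 of 4 neuron markers. On all U87-MG arrays it was so for 3, 2 and 1. Detection on these arrays therefore did not separate the cell types.

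Some calls with the block also ended under other processing. With no filter on dim probes, more probes were tested and adjusted p was 0.222 for CDKN1A, 0.227 for PLK2, 0.331 for TNFRSF10B in U87-MG and 0.256 for the second probe of DDB2 there. In A172 it was 0.316 and 0.216 for the brightest and the second probe of CCNG1 and 0.204 for the brightest probe of TP53INP1. The brightest CCNG1 probe had 0.47 in A172 after normexp background correction and 0.50 (adjusted p = 0.205) with the 75th percentile taken over probes above background on all arrays. TNFRSF10B in U87-MG had an adjusted p of 0.222 with the line fitted alone, and TP53INP1 probe A_33_P3421163 in A172 had 0.257 with the authors' log2 values. PMAIP1 and TNFRSF10B in A172 kept their calls under each of 10 alternatives joined to the block.

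The lines were compared gene by gene through the difference of their knockdown effects. CDKN1A and TNFRSF10B were called as lower and TP53INP1 as higher in both lines with the block, CCNG1 and PMAIP1 were called in A172 alone, and PLK2 and DDB2 in U87-MG alone. A call in 1 line does not show a difference, and 0 of the 26 members tested in both lines were called for a difference in limma, with or without the block, against 0.0169% and 0.602% of all 11802 genes. At an unadjusted p below 0.05 the numbers were 0 without the block and 4 with it, beside 1.07% and 10.8% of all genes. The 4 were PMAIP1, TNFRSF10B, DDB2 and CCNG1, the last by its dimmer probe. The A172 effect minus the U87-MG effect was -1.17 for TNFRSF10B (adjusted p = 0.284 with the block), -0.70 for DDB2 (0.313) and -0.82 for PMAIP1 (0.333). By the brightest probe, 14 of 26 members (53.8%) had fitted changes of the same sign in both lines, beside 54.3% of all 21161 probes tested in both. TNFRSF10B and DDB2 did pass the threshold for a difference under a mean-variance trend with the block (adjusted p = 0.0609 and 0.0853) and after normexp background correction with the block (0.0128 and 0.0280). TP53INP1 probe A_33_P3421163 passed after normexp correction too, but its U87-MG controls were at background, so no size or direction is given for it. Without U87-MG pair 3, TNFRSF10B passed as well (0.193).

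**Figure D4:**
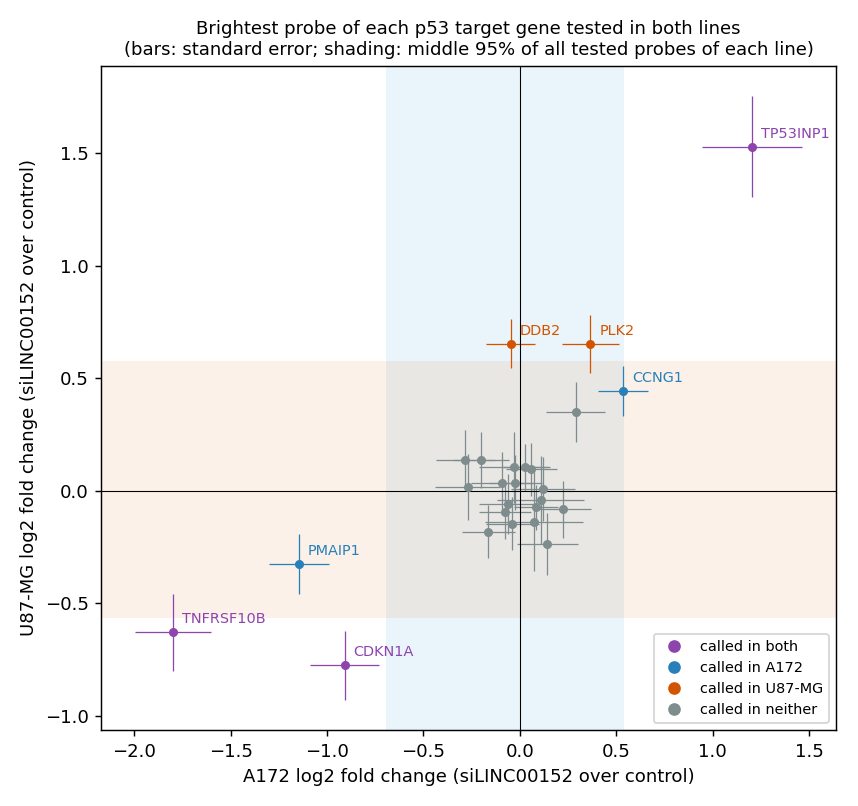
Log2 fold change after LINC00152 knockdown in A172 (horizontal) against U87-MG (vertical) for the brightest probe of 26 p53 target genes tested in both lines, with standard errors from the model with the replicate block and shading for the middle 95% of all tested probes of each line. TP53INP1 stands at the upper right and CDKN1A, PMAIP1 and TNFRSF10B at the lower left.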

How the data were processed

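Total RNA of 14 cultures was labelled with Cy3 and hybridised to one-colour Agilent arrays. The authors deposited the scanner output of each array, in which the intensity of every spot was extracted with Agilent Feature Extraction 11.5.1.1. The array design is annotated to hg19. The authors also deposited log2 values that were normalized between arrays to a common distribution. The processed intensity was taken here on the log2 scale minus the array's 75th percentile over 58717 non-control spots. Outlier spots (non-uniform or far from their replicates) were removed, and the remaining spots of each probe were averaged. No non-control spot was saturated. Accessions without version were matched to RefSeq's gene table (GRCh38.p14), and 29033 of 50599 probes received a name.

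Well above background means, for a probe on an array, that at least 0.5 of its spots passed the scanner's test. The functions lmFit and eBayes of limma 3.58.1 (R 4.3.3) fitted 4 group means to all arrays, with Benjamini-Hochberg adjustment within each line. A gene was called if at least 1 of its tested probes was. With 3 or 4 arrays in a group, precision was low for single genes. After subtracting group means, arrays sharing a replicate number correlated, with r of 0.675 to 0.794 (A172) and 0.373 to 0.864 (U87-MG). For different numbers r was -0.701 to -0.0436 and -0.772 to 0.411. The ranges were apart in A172 and overlapped in U87-MG. There knockdown replicate 1 had r of 0.373 with control 1 and 0.411 with control 2. Arrays were paired by the numbers given in the labels in both lines. In A172 the pair is also the slide. The block fit had 7 pair effects and a knockdown effect for each line.

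All members are named by the probe with the highest mean over 14 arrays, with further probes where they disagree. Of the other lists, genes called without the block are named, and of those called with it up to 4 per list and line. MDM4, CDKN2A and the LINC00152 locus are named throughout. The members and lists were chosen with earlier results of these data known. Alternatives were the background correction, normalization, the authors' log2 values, filters on dim probes, flagged spots, lines fitted alone, the block, a variance trend, the FDR and arrays or pairs left out, and those joined to the block, other than leaving out pairs, were chosen after seeing the data. Normexp background correction added an offset of 50 to the signal before the log. The 75th percentile of the processed signal ran from 131.3 to 283.7 on A172 arrays and from 32.96 to 69.03 on U87-MG arrays. The model was also run on simulated data, and no result given here rests on that run.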

Additional observations from a re-analysis of the deposited data

Results flagged for a closer look

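Among 52 groups of 4 U87-MG arrays (26 members, control and knockdown), 5 held 1 array far from the other 3, where chance gives about 1 in 20. Control replicate 3, the dimmest array, was the lowest for GADD45A (2.96, next array 3.73), BTG2 (-2.32, next -0.83) and RPS27L (4.29, next 5.28). Knockdown replicate 3 was the lowest for TRIAP1 (0.83, next 1.12), and knockdown replicate 4 the lowest for PLK3 (2.94, next 3.62). The part of array brightness in these values was not tested. None of these 5 genes was called in either line.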

How the results depend on the processing

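LINC00152 stayed called as lower in both lines under every alternative run. The medians of the targets, near 0, changed sign under some alternatives. The count of called probes without the block was 52 for A172 and 11 for U87-MG. In A172 they were 133 after normexp background correction, 34 without a filter on dim probes, 14 with each line fitted alone, 27 at an FDR of 0.05 and 924 with the block, and 4 to 127 with an array or replicate left out. In U87-MG they were 4 after normexp, 7 at an FDR of 0.05, 918 with the block and 2 to 17 with one left out. The cause of these shifts was not tested.

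Without the block, 0 p53 targets were called in A172 with limma (3 at an unadjusted p under 0.05), 1 after normexp and 5 with the block, and 0 to 2 with an array or replicate left out, where TP53INP1 and TNFRSF10B were called without U87-MG control replicate 3. In U87-MG the 1 target became 0 after normexp, with quantile normalization, with the authors' values or with each line fitted alone, 5 with the block, and 0 to 1 with an array or replicate left out. Where 1 array of A172 was left out, the group of 2 was assumed to vary like the others.

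The 5 targets called with the block in A172 became 3 at an FDR of 0.05 and 3 to 6 with a pair left out, and the 5 of U87-MG became 2 after normexp, 2 without the filter, 1 at an FDR of 0.05 and 1 to 5 with a pair left out. Differences between the lines with the block went from 0 to 3 after normexp, to 2 with a variance trend, and to 0 to 1 with a pair left out. Alternatives joined to the block, other than leaving out pairs, were chosen after seeing the data.

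The median log2 fold change of the targets in U87-MG was 0.011, and -0.016 after normexp, 0.029 with quantile normalization, 0.031 with the authors' values, -0.050 without the filter and 0.035 as the mean over all probes of a gene. With an array or replicate left out it ran from -0.089 to 0.058, and in A172, where it was 0.027 and after normexp -0.022, from -0.10 to 0.093. Signal over background limited the targets tested to 29 in A172 and 26 in U87-MG.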

Other observations

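CDKN2A is commonly listed as deleted in both lines, yet a probe assigned to it was well above background on all 14 arrays. Neither its copy number nor the specificity of the probe was measured, so these values may not describe CDKN2A.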
